A study of Mus musculus with 8 samples.

Results

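The 9 genes described here encode 6 signal transducers and activators of transcription (STATs), namely Stat2, Stat3, Stat4, Stat5a, Stat5b and Stat6, and 3 inhibitors of the suppressor of cytokine signalling (SOCS) family, namely Socs1, Socs3 and Cish. They are the rows of a gene expression table whose identifiers carry these symbols in the GENCODE M21 annotation, and all 9 were found among its 26589 genes. RNA was sequenced from 4 libraries of IL-10+ B cells and 4 libraries of IL-10- B cells. In both groups the cells were B cells purified from the spleens of IL-10-eGFP Tiger mice, which carry a green fluorescent reporter of Il10 transcription, and were kept in culture with lipopolysaccharide (LPS) at 3 µg/ml for 48 h before the sort by the reporter. The labels give no age, no unsorted or unstimulated group, and do not say whether a replicate number stands for a mouse or a culture, so p-values measure only the spread between these libraries.

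STATs are latent transcription factors. A cytokine brings its receptor chains together, Janus kinases (JAKs) bound to those chains phosphorylate the receptor and then a STAT, and paired STATs enter the nucleus and bind DNA. STAT3 carries signals of the IL-10, IL-6 and IL-21 receptors, STAT6 those of IL-4 and IL-13, STAT4 those of IL-12, STAT5A and STAT5B those of IL-2, IL-5 and IL-7, and STAT2 works with IRF9 in the complex that answers type I interferon. SOCS genes are themselves transcribed in response to STATs, and their proteins bind receptors or JAKs and dampen the signal, which closes a feedback loop. In B cells, STAT6 promotes class switching to IgE and transcription of the IgE receptor gene Fcer2a, and STAT3 promotes plasma cell formation.

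The promoters of the 3 inhibitor genes are printed because they are the members of which STAT-driven transcription is best known. Each runs from 250 bases before the RefSeq start to 50 after it, on GRCm38.p6, read 5′ to 3′ on the gene's own strand. Cish is shown at chr9:107296409-107296708 (plus strand), Socs3 at chr11:117969317-117969616 (minus strand) and Socs1 at chr16:10785487-10785786 (minus strand). Capitals mark TTCNNNGAA, the core that most STAT dimers recognise, in Cish and Socs3, and GAAANNGAAA, the core recognised by the interferon-activated complex that holds STAT2 and by interferon regulatory factors, in Socs1.
Cish: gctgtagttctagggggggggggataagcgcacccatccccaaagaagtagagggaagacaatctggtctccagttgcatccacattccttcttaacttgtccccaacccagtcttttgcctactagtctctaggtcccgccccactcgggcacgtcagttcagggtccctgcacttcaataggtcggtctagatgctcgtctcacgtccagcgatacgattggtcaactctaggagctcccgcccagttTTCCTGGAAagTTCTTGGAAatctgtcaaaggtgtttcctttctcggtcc
Socs3: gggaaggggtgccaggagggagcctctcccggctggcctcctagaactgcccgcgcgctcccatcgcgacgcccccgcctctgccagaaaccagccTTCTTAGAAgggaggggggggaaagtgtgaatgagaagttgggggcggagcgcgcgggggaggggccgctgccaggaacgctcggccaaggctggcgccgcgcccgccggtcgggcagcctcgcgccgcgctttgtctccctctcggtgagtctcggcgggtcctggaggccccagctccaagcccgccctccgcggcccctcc
Socs1: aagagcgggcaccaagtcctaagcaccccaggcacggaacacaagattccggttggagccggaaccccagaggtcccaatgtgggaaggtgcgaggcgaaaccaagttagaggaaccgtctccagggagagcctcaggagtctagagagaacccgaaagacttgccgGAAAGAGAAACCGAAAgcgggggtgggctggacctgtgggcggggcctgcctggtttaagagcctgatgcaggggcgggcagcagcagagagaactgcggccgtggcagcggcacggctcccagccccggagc
The Cish window held TTCNNNGAA 2 times, from bases 251 and 262 of the window, and the Socs3 window held it 1 time, from base 97. Of the 32851 mouse promoter windows in the same table, 8.3% held at least 1 match and 0.457% held 2 or more. The Socs1 window held 2 matches of GAAANNGAAA, from bases 168 and 174, which overlap each other, against 3.44% of all windows with at least 1 match and 0.225% with 2 or more. TTCNNNGAA reads the same on both strands, and GAAANNGAAA was searched on both. Among the STAT genes, the windows of Stat2 and of a downstream start of Stat4 held GAAANNGAAA, and no window of Stat3, Stat5a, Stat5b or Stat6 held either motif. A match describes letters and is not evidence of binding.

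Library totals recovered from the values were 27380377 to 29968268 reads, so that 1 read in a 1 kb gene is worth 0.0334 to 0.0365 FPKM (fragments scaled by gene length and library size). Il10, the gene behind the sort, averaged 36.9 ± 5.32 FPKM in IL-10+ cells and 3.17 ± 1.48 FPKM in IL-10- cells (n = 4 each, SD), in the direction of the labels. The 5 B cell markers summed to 1157 to 1450 FPKM in IL-10+ libraries and 1252 to 1682 FPKM in IL-10- libraries. Of these Pax5, the factor of B cell identity, averaged 87.2 ± 11.7 FPKM in IL-10+ libraries against 150.5 ± 19.7 FPKM in IL-10- libraries, and Ms4a1, which encodes CD20, 88.1 ± 3.74 FPKM in IL-10+ libraries against 133.5 ± 5.14 FPKM in IL-10- libraries (n = 4 each, SD), so both were lower beside the STAT and SOCS genes that fell. The 7 plasmablast markers summed to 1331 to 1357 FPKM in IL-10+ libraries and 314.9 to 441.8 FPKM in IL-10- libraries, so the groups differ in the level of a plasma cell program. Markers of T cells, NK cells, neutrophils and red cells each summed to under 3 FPKM in every library. Those of macrophages and monocytes, mostly Cd68, summed to 6.52 to 10.5 FPKM in IL-10+ libraries and 6.99 to 11.4 FPKM in IL-10- libraries, and those of dendritic cells, mostly Flt3, to 7.57 to 11.4 FPKM in IL-10+ libraries and 9.59 to 14.9 FPKM in IL-10- libraries. The part of these marker differences in the results was not tested, and in bulk RNA fewer cells that express a gene and less RNA of it per cell cannot be told apart.

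Of the 9 genes, 4 fell in IL-10+ cells (Stat2, Stat5a, Stat6 and Socs3), 0 rose, 4 did not pass the test (Stat3, Stat4, Stat5b and Socs1), and Cish was too low to enter it. The test was limma on log2(FPKM + 1) over the 11329 genes that reached 1 FPKM in 4 or more libraries, and calls were made at an adjusted p (Benjamini-Hochberg) below 0.05. Over all genes tested, 9.18% fell and 10.6% rose. The 8 genes tested had a median log2 change of -0.35, against -0.06 over all genes tested. Deviations from the group means went together between libraries that share a replicate number, and with that number as a replicate block 7 of the 8 fell, all but Socs1, against 33.3% of all genes that fell and 20.4% that rose in that fit. The groups did not overlap for 5 of the 8 genes, against 25.2% of all genes tested.

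**Figure D1:**
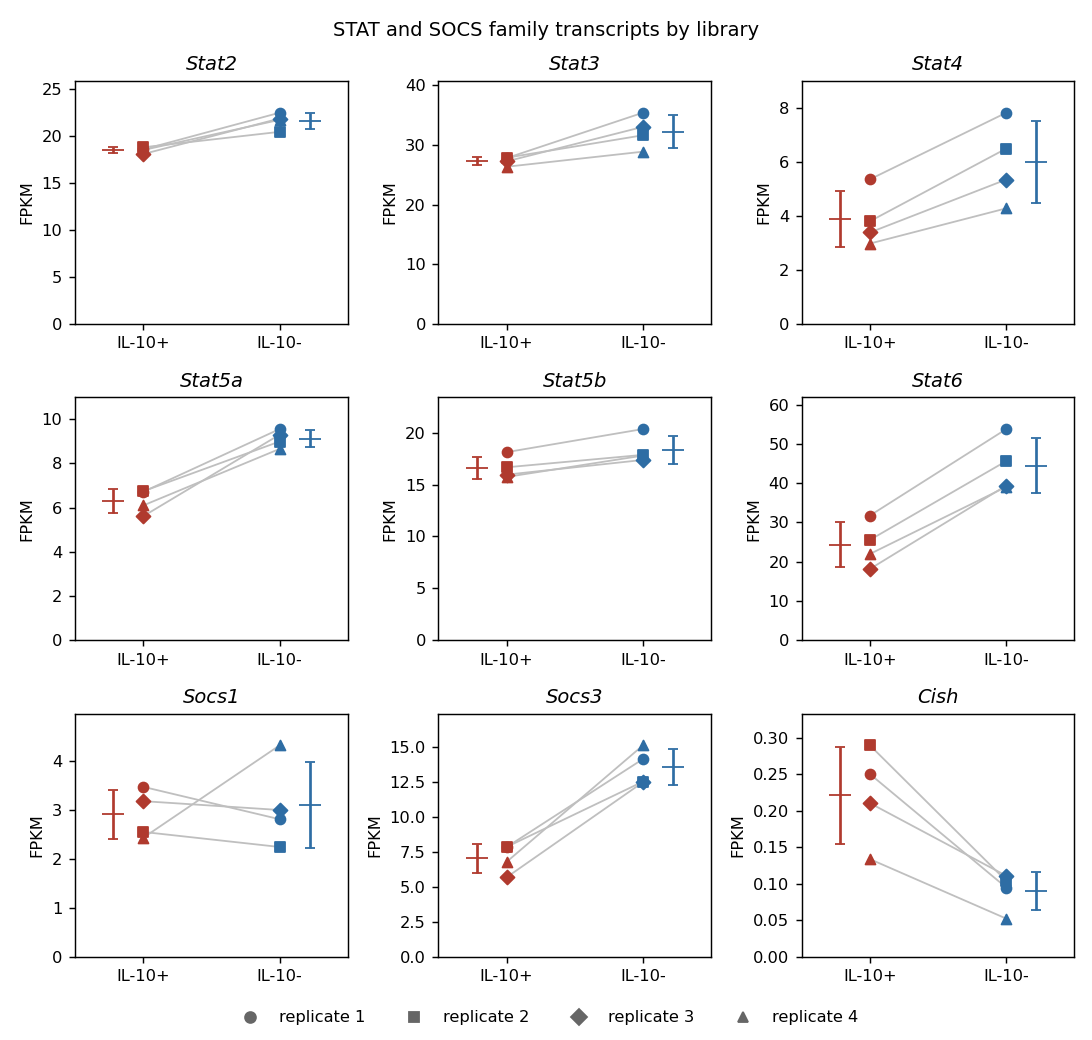
FPKM of each of the 9 genes in every library (y axis, linear, from 0; a panel per gene), with IL-10+ libraries on the left, IL-10- libraries on the right, symbols for replicate numbers, grey lines joining libraries of the same number, and the group mean with its SD as a cross with a bar beside the points. Stat6 lay between 18.1 and 31.7 FPKM in IL-10+ cells and between 39.1 and 53.8 FPKM in IL-10- cells, while the groups overlapped for Stat4, Stat5b and Socs1.

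Per length, Stat3 (27.3 FPKM), Stat6 (24.3 FPKM), Stat2 (18.5 FPKM) and Stat5b (16.6 FPKM) were the most abundant of the 9 in IL-10+ cells, followed by Socs3 (7.04 FPKM), Stat5a (6.29 FPKM), Stat4 (3.87 FPKM), Socs1 (2.91 FPKM) and Cish (0.221 FPKM). In that order the library ranges of Stat3 and Stat6, Stat6 and Stat2, Stat2 and Stat5b, Socs3 and Stat5a, and Stat4 and Socs1 were not apart. In IL-10- cells Stat6 came first (44.5 FPKM) and Stat3 second (32.2 FPKM), the remaining order was the same, and among neighbours only the ranges of Stat4 and Socs1 were not apart. The FPKM of the 6 STAT genes summed to 96.9 ± 8.87 in IL-10+ cells and 131.8 ± 12.5 in IL-10- cells (n = 4 each, SD; exact two-sided permutation p = 0.0286, the smallest that 4 against 4 libraries allow). Stat2, Stat5a and Stat6, which fell by themselves, are part of the sum, so its p is not separate from their calls. Of that sum Stat6 made up 24.9% ± 3.66 in IL-10+ cells and 33.6% ± 2.19 in IL-10- cells, while Stat3 made up 28.3% ± 2.12 in IL-10+ cells and 24.5% ± 1.12 in IL-10- cells (n = 4 each, SD). These shares depend on each other, since they add up to the whole, and are given without a test.

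Stat6, the factor of IL-4 and IL-13 signals, lies on chromosome 10 (GRCm38, 127642986 to 127660957, plus strand). It measured 31.7, 25.5, 18.1 and 21.96 FPKM in IL-10+ replicates 1 to 4 and 53.8, 45.6, 39.4 and 39.1 FPKM in IL-10- replicates 1 to 4. Every IL-10+ library was below every IL-10- library, and replicate 1 was the highest of both groups. The mean was 24.3 ± 5.78 FPKM in IL-10+ cells and 44.5 ± 6.90 FPKM in IL-10- cells, 0.548 times as much (n = 4 each, SD). The log2 change was -0.86 (SE 0.171, limma adjusted p = 0.00835), and Stat6 fell whichever library was left out.

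Stat5a is one of a pair of close STAT5 paralogs (chromosome 11, 100859351 to 100885169, plus strand). Its values were 6.71, 6.74, 5.61 and 6.10 FPKM in IL-10+ libraries and 9.55, 8.99, 9.30 and 8.65 FPKM in IL-10- libraries, with the groups well apart and a narrow spread in each. Means of 6.29 ± 0.542 FPKM in IL-10+ cells and 9.12 ± 0.389 FPKM in IL-10- cells gave a log2 change of -0.48 (SE 0.070, limma adjusted p = 0.00173; n = 4 each, SD). This call too held with each library left out. Stat5b, the other paralog (chromosome 11, 100780731 to 100850724, minus strand), is known for growth hormone signals as well. It measured 18.1, 16.7, 15.96 and 15.7 FPKM in IL-10+ libraries and 20.4, 17.9, 17.4 and 17.8 FPKM in IL-10- libraries. Its groups overlapped, because IL-10+ replicate 1 exceeded 3 of the IL-10- libraries, although the IL-10+ library was the lower one at each replicate number. Stat5b had a log2 change of -0.13 (95% interval -0.30 to 0.03, limma adjusted p = 0.245) and fell only with the replicate block (limma adjusted p = 0.0104).

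The ratio of Stat5b to Stat5a FPKM within a library was 2.70, 2.47, 2.84 and 2.58 in IL-10+ cells and 2.13, 1.99, 1.87 and 2.06 in IL-10- cells. Every IL-10+ library thus had a higher ratio than every IL-10- library. On the log2(FPKM + 1) scale the ratio was 1.28 ± 0.0748 in IL-10+ cells and 0.93 ± 0.0765 in IL-10- cells (n = 4 each, SD), a difference of 0.34 (exact two-sided permutation p = 0.0286, the smallest possible). Exchanging libraries only within replicate numbers, as a replicate block, gave an exact permutation p of 0.125, again the smallest that this design allows. Both genes and Stat3 sit together within 158810 bases of chromosome 11. The starts of Stat5b (minus strand) and Stat5a (plus strand) are separated by 8626 bases, so both genes are read away from each other. The last 72 bases of Stat5a overlap those of Stat3 on the opposite strand. Of the 50-base windows of transcript Stat5a-201, 15.8% also occur in Stat5b transcripts, and of those of Stat5b-202, 11.8% occur in Stat5a transcripts. The sources used here do not give how reads from such stretches were assigned, and the split between both genes is uncertain to that extent.

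**Figure D2:**
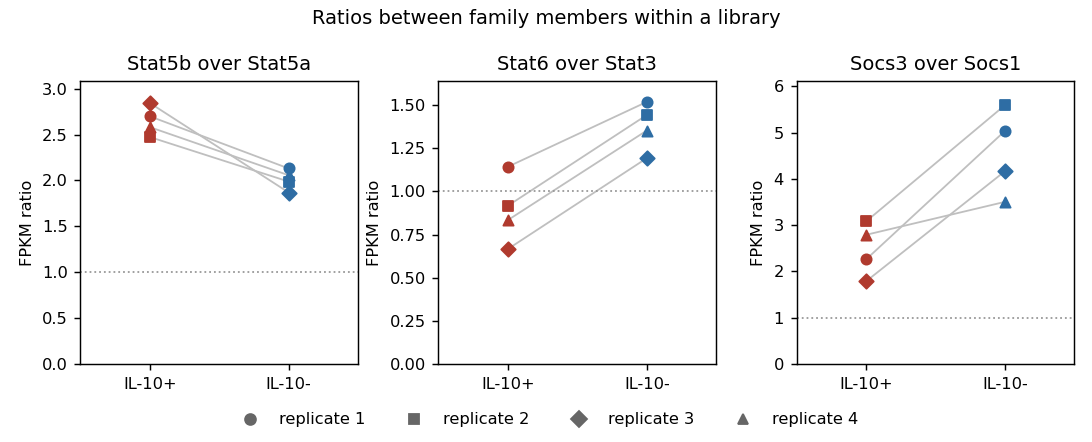
Ratio of FPKM between pairs of genes within a library (y axis, linear, from 0), IL-10+ on the left and IL-10- on the right of each panel, with grey lines joining libraries of the same replicate number and a dotted line at 1. Stat5b over Stat5a was higher in each IL-10+ library (2.47 to 2.84) than in any IL-10- library (1.87 to 2.13), while Stat6 over Stat3 and Socs3 over Socs1 were lower.

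Stat3, the main effector of the IL-10 receptor, lies beside Stat5a (chromosome 11, 100885098 to 100939540, minus strand). Its levels were 27.8, 27.8, 27.2 and 26.3 FPKM in IL-10+ libraries and 35.4, 31.6, 33.0 and 28.9 FPKM in IL-10- libraries. The groups did not overlap, and the IL-10+ libraries were much closer to each other than the IL-10- libraries. With means of 27.3 ± 0.701 FPKM in IL-10+ cells and 32.2 ± 2.73 FPKM in IL-10- cells (n = 4 each, SD), the log2 change was -0.23 (95% interval -0.39 to -0.06), with a limma adjusted p of 0.0576 that misses the threshold. It fell with the replicate block (limma adjusted p = 0.00634) and without IL-10- replicate 4 (limma adjusted p = 0.0301). In a pair chosen after the values were seen and given without a test, the ratio of Stat6 to Stat3 was 1.14, 0.917, 0.666 and 0.834 in IL-10+ libraries and 1.52, 1.44, 1.19 and 1.35 in IL-10- libraries, so Stat3 exceeded Stat6 in 3 of 4 IL-10+ libraries and in 0 of 4 IL-10- libraries.

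Stat2, the type I interferon factor, lies on chromosome 10 (128270559 to 128292849, plus strand), 609601 bases from Stat6. It measured 18.6, 18.8, 18.1 and 18.5 FPKM in IL-10+ libraries and 22.5, 20.47, 21.9 and 21.8 FPKM in IL-10- libraries, with no overlap. Its log2 change of -0.22 was small (SE 0.0548, limma adjusted p = 0.0254). The call was lost when any library but IL-10- replicate 2 was left out (limma adjusted p up to 0.0796), and with values rescaled by median of ratios (adjusted p = 0.0570) or to the total without immunoglobulin and mitochondrial genes (adjusted p = 0.0641).

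Stat4, the IL-12 factor, is better known from T and NK cells (chromosome 1, 51987148 to 52107189, plus strand). It was found here at 5.35, 3.80, 3.38 and 2.97 FPKM in IL-10+ libraries and 7.81, 6.49, 5.34 and 4.27 FPKM in IL-10- libraries. The highest IL-10+ library, replicate 1, lay above the lowest 2 IL-10- libraries, yet at each number the IL-10+ library was the lower. The log2 change was -0.51 (95% interval -0.94 to -0.09) with a limma adjusted p of 0.0927, and Stat4 fell with the replicate block (limma adjusted p = 0.000604). It also fell without IL-10+ replicate 1 (limma adjusted p = 0.0364) or without IL-10- replicate 4 (limma adjusted p = 0.0476). The 6 T cell markers summed to 0.377 to 2.21 FPKM in IL-10+ libraries and 0.362 to 1.36 FPKM in IL-10- libraries, and the NK markers to at most 0.554 FPKM in IL-10+ libraries and 0.553 FPKM in IL-10- libraries. FPKM of different genes do not show how much RNA other cells gave, and their part in Stat4 was not tested. Trac was the only T cell marker above 0.0783 FPKM in any library. Of the exon bases of Stat4, 26.7% are shared with the same-strand transcript Gm28177, whose own highest value was 0.0604 FPKM.

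**Figure D3:**
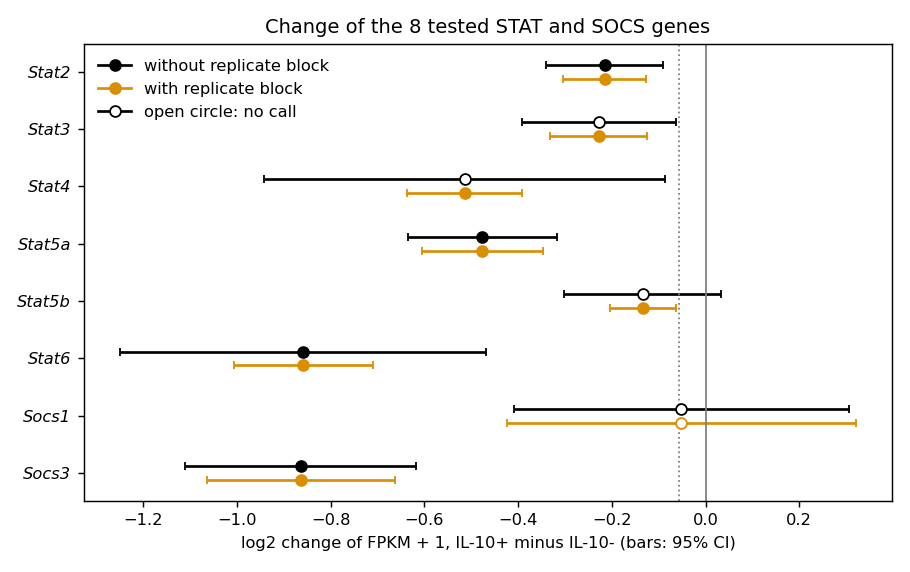
Log2 change of FPKM + 1, IL-10+ minus IL-10- (x axis), for the 8 genes tested, with 95% intervals, without the replicate block in black and with it in orange; filled circles passed the test, and the dotted line is the median of all genes tested (-0.06). Stat6 and Socs3 both lie at -0.86, and the interval of Socs1 spans 0 in both fits.

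Socs3, the inhibitor that binds the shared IL-6 receptor chain gp130 and restrains STAT3 signals of that receptor, lies on chromosome 11 (117966079 to 117970047, minus strand). It measured 7.85, 7.86, 5.68 and 6.79 FPKM in IL-10+ libraries and 14.2, 12.5, 12.5 and 15.1 FPKM in IL-10- libraries. All IL-10+ libraries were below all IL-10- libraries, with a gap wider than the range of either group. Means of 7.04 ± 1.04 FPKM in IL-10+ cells and 13.6 ± 1.29 FPKM in IL-10- cells (n = 4 each, SD) gave a log2 change of -0.86 (SE 0.108, limma adjusted p = 0.000676). The call held with each library left out.

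Socs1, the inhibitor that binds JAKs directly and restrains interferon signals, lies on chromosome 16 (10782240 to 10785536, minus strand). It was found at 3.47, 2.55, 3.18 and 2.43 FPKM in IL-10+ libraries and 2.81, 2.24, 3.00 and 4.32 FPKM in IL-10- libraries. The groups overlapped, and the IL-10+ library was the higher at replicate numbers 1 to 3 and the lower at number 4. The log2 change was -0.05 (95% interval -0.41 to 0.31, limma adjusted p = 0.854), and it turned to 0.08 without IL-10- replicate 4 and to 0.01 without IL-10+ replicate 4. The ratio of Socs3 to Socs1, chosen after the values were seen, was 2.26, 3.08, 1.79 and 2.79 in IL-10+ libraries and 5.04, 5.59, 4.17 and 3.50 in IL-10- libraries, with no overlap.

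Cish, the SOCS family member induced by STAT5, lies on chromosome 9 (107296026 to 107302784, plus strand) and was near the limit of detection. Its 0.250, 0.290, 0.210 and 0.134 FPKM in IL-10+ libraries and 0.0946, 0.104, 0.111 and 0.0520 FPKM in IL-10- libraries stand for 44, 52, 39 and 24 reads in IL-10+ and 17, 19, 20 and 10 reads in IL-10- libraries. Each IL-10+ library was above each IL-10- library. The means, 0.221 ± 0.0667 FPKM in IL-10+ cells and 0.0903 ± 0.0264 FPKM in IL-10- cells, differed by a ratio of 2.45 (n = 4 each, SD; exact two-sided permutation p = 0.0286, the smallest possible, not adjusted for other genes). When all genes above 0 were tested together, Cish did not pass (limma adjusted p = 0.0560 with a pseudocount of 1 and 0.0878 with 0.1). Of the exon bases of Cish, 7.46% are shared with Gm17041, which has no value here, and 4.07% with Gm17040 (at most 0.0933 FPKM). Both lie on the opposite strand, and their part in the Cish reads was not tested. Socs2, a relative of Cish and likewise a target of STAT5, is not among the 9 and was picked after its values were seen. It measured 0.993, 1.33, 1.31 and 1.27 FPKM in IL-10+ libraries and 0.300, 0.177, 0.391 and 0.403 FPKM in IL-10- libraries, a ratio of means of 3.86. Socs2 also lay below the filter, and over all genes above 0 it rose (limma adjusted p = 0.00179).

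Around these genes, 63 of 65 listed genes of cytokine signalling were found in the table, and 50 passed the filter. Of these 50, 9 rose and 14 fell in IL-10+ cells, against 10.6% and 9.18% of all genes tested, with a median log2 change of -0.19 against -0.06 over all genes. The rises include Il10, whose reporter defined the sort, so its rise was fixed in advance. The falls include Osm, which met the filter through the IL-10- group alone. With the replicate block 12 rose and 29 fell, against 20.4% and 33.3% of all genes tested in that fit. Il2 and Ifnb1 were not analysed here.

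**Figure D4:**
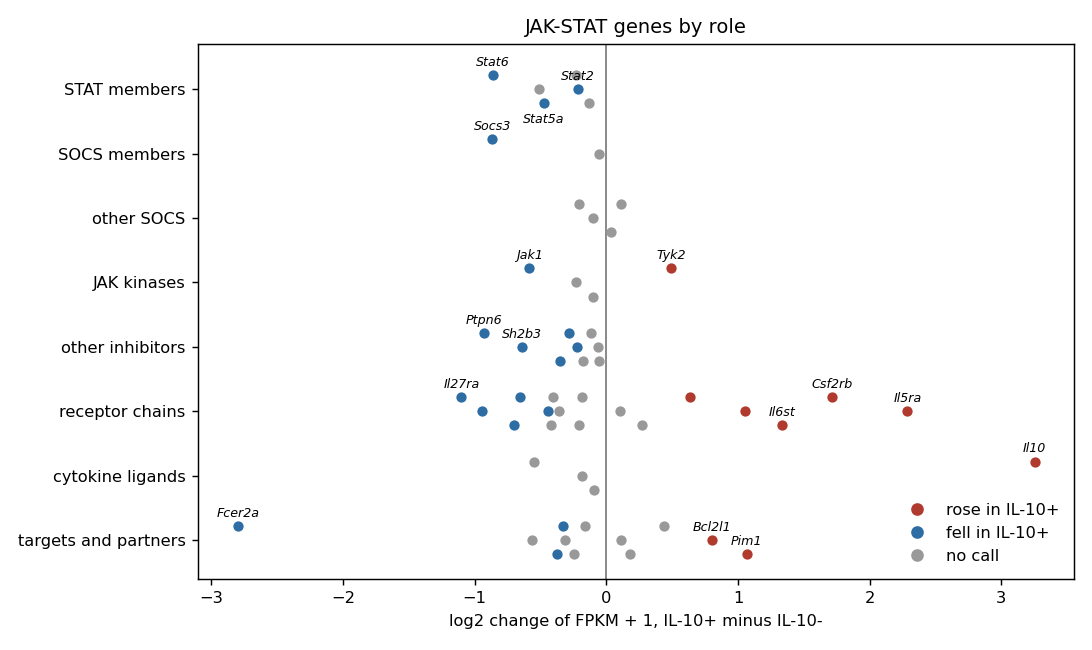
Log2 change of FPKM + 1, IL-10+ minus IL-10- (x axis), for the 8 genes and the listed pathway genes that were tested, by role (rows), in red where they rose, blue where they fell and grey where they did not pass, in the fit without the replicate block. The STAT, SOCS and inhibitor rows hold no red point, whereas the receptor row spans -1.10 (Il27ra) to 2.29 (Il5ra). Cish and Socs2 lay below the filter and are not shown, though both were higher in each IL-10+ library than in any IL-10- library.

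Among the 4 other SOCS genes tested, 0 passed, and the most abundant, Socs4, had a log2 change of -0.21 (limma adjusted p = 0.0899, and 0.00794 with the replicate block). Of the 4 JAK kinases, 1 fell and 1 rose, against 9.18% that fell and 10.6% that rose of all genes tested. Jak1, which serves the IL-10, IL-6 and interferon receptors, averaged 40.0 ± 2.47 FPKM in IL-10+ cells and 60.5 ± 2.73 FPKM in IL-10- cells, a log2 change of -0.58 (limma adjusted p = 0.00043; n = 4 each, SD). Tyk2, which often works beside Jak1, averaged 16.3 ± 1.13 FPKM in IL-10+ cells and 11.3 ± 0.939 FPKM in IL-10- cells, a log2 change of 0.49 (limma adjusted p = 0.00238; n = 4 each, SD). Both calls held with each library left out, so the partner kinases of the IL-10 receptor moved in opposite directions. Jak2 did not pass, and Jak3 had a log2 change of -0.23 (limma adjusted p = 0.368, and 0.00300 with the replicate block).

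Of 9 other inhibitors, 5 fell and 0 rose, against 9.18% that fell and 10.6% that rose of all genes tested. Ptpn6, the phosphatase SHP-1, averaged 75.9 ± 6.63 FPKM in IL-10+ cells and 144.7 ± 3.93 FPKM in IL-10- cells, a log2 change of -0.93 (limma adjusted p = 7.1e-05; n = 4 each, SD). Sh2b3, the adaptor LNK, changed by -0.64 on the log2 scale (limma adjusted p = 0.00575) and Ptpn1, the phosphatase PTP1B, by -0.35 (limma adjusted p = 0.0128). The remaining falls were of Pias2 and Pias4, which encode ligases that bind STATs, and that of Pias4 was lost in 7 of 8 fits that left out a library, with an adjusted p of up to 0.121. Both Ptpn6 and Socs3, inhibitors of different families, were thus at 0.525 and 0.518 times the IL-10- mean in IL-10+ cells.

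Receptor chains went both ways, with 5 rises and 5 falls among 17 tested, against 10.6% that rose and 9.18% that fell of all genes tested. Il5ra, the IL-5 binding chain, averaged 14.7 ± 4.84 FPKM in IL-10+ cells and 2.11 ± 0.335 FPKM in IL-10- cells (6.94-fold, log2 change 2.29, limma adjusted p = 0.000105; n = 4 each, SD). Csf2rb, the signalling chain that pairs with it, averaged 26.2 ± 3.69 FPKM in IL-10+ cells and 7.47 ± 2.33 FPKM in IL-10- cells (3.50-fold, limma adjusted p = 0.00043; n = 4 each, SD). Il6st, which encodes gp130, averaged 7.05 ± 0.969 FPKM in IL-10+ cells and 2.19 ± 0.306 FPKM in IL-10- cells (3.22-fold, limma adjusted p = 5.7e-05; n = 4 each, SD). Il6ra and Il2rb were the other rises, and Il27ra, Il10ra, Il4ra, Ifngr2 and Il12rb1 the falls, of which that of Il12rb1 was lost in 4 of 8 fits that left out a library (limma adjusted p up to 0.0692). Chosen after the values were seen, the receptors for IL-10 and IL-4 are set beside their STATs. Il10ra averaged 14.7 ± 3.29 FPKM in IL-10+ cells and 28.9 ± 4.56 FPKM in IL-10- cells (log2 change -0.94, limma adjusted p = 0.00438; n = 4 each, SD), and Il4ra 10.7 ± 0.749 FPKM in IL-10+ cells and 18.2 ± 1.97 FPKM in IL-10- cells (log2 change -0.70, limma adjusted p = 0.000669; n = 4 each, SD). Thus Il4ra fell together with Stat6. Il10ra fell while Stat3 narrowly missed the threshold, although Stat3 too was lower in every IL-10+ library and fell with the replicate block (limma adjusted p = 0.00634). Of 4 cytokine genes tested only the sort gene Il10 passed without the replicate block. With the block Il12a (limma adjusted p = 0.00809) and Il6 (0.0475) fell too.

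Among 12 known STAT targets and partners, 2 rose and 3 fell, small counts to be read against the 10.6% and 9.18% of all genes tested. Pim1, a kinase gene transcribed by STAT3 and STAT5, averaged 284.7 ± 28.5 FPKM in IL-10+ cells and 135.1 ± 4.89 FPKM in IL-10- cells (log2 change 1.07, limma adjusted p = 5.1e-05; n = 4 each, SD). Bcl2l1, which encodes the survival protein BCL-XL, averaged 21.1 ± 1.87 FPKM in IL-10+ cells and 11.8 ± 2.69 FPKM in IL-10- cells (log2 change 0.80, limma adjusted p = 0.00466; n = 4 each, SD). Fcer2a, the IgE receptor CD23 and a target of STAT6, measured 24.3, 11.9, 4.39 and 7.74 FPKM in IL-10+ libraries and 129.3, 89.9, 50.6 and 57.6 FPKM in IL-10- libraries, a log2 change of -2.80 (SE 0.473, limma adjusted p = 0.00365). Bcl3 and Osm also fell, by 0.38 and 0.33 on the log2 scale, and each lost its call in most fits that left out a library, with adjusted p up to 0.0875 for Bcl3 and 0.115 for Osm. Osm reached 1 FPKM in the 4 IL-10- libraries and in 0 IL-10+ libraries (0.686 to 0.932 FPKM), so it met the filter through the IL-10- group alone and had to be lower in IL-10+ cells to enter the test.

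The genes whose log2(FPKM + 1) followed each called gene most closely over the 8 libraries were Fcer2a (Pearson r = 0.998) and Arhgap17 (0.997) for Stat6, Marcksl1 (0.992) and Celf2 (0.991) for Stat5a, Chd4 (0.988) and Ifit3 (0.986) for Stat2, and Grm6 (0.988) and Alkbh7 (0.986) for Socs3. These points share the contrast between groups and the libraries, and the genes were picked for the highest r among all named protein-coding genes, so the values are a description. After each group's mean was taken away, r was 0.994 between Stat6 and Fcer2a, 0.9865 between Stat6 and Arhgap17 and 0.901 between Stat5a and Marcksl1. Stat6 and Fcer2a ranked the 4 IL-10+ libraries in the same order, and in IL-10- cells replicate 1 was the highest and replicate 2 the next for both genes.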

How the data were processed

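The 8 libraries were made from Trizol-extracted RNA with a NEBNext Ultra kit, per the labels' protocols. A treatment tag reads untreated against those protocols, which were followed. The authors deposited a table of FPKM. Per the submitters' processing notes, HISAT2 2.1.0, HTSeq 0.6.0 and mm10 were used. The sources used here give neither the annotation release nor the strand setting nor the handling of shared reads, so overlapping and near-identical genes are uncertain. Names and positions are from GENCODE M21 (GRCm38, the build of mm10; 26517 of 26589 identifiers matched), and promoters from RefSeq (GRCm38.p6; all 9 genes matched by symbol).

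From 93.1% to 93.5% of values gave whole reads within 0.05. Groups were compared with limma 3.58.1 (R 4.3.3, variance trend) on log2(FPKM + 1), a scale that understates changes of low genes. The fit without the replicate block was tested on simulated data with independent libraries. Such data lack the correlation within replicate numbers given below, so that setting was not tested. Exact tests used scipy 1.17.1. A fold or ratio without a log2 scale is of mean FPKM.

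For the replicate block, replicate numbers were taken as pairs because deviations from group means correlated across genes within numbers. The correlations were 0.712, 0.583, 0.621 and 0.7 within numbers and at most 0.435 between numbers, so the pairing rests on the values alone. Calls given without the block did not use the pairs. An item of the lists is not reported here. Members and lists were chosen with earlier results of these data known. Genes named from a list were up to 3 called genes with the largest change, or the most abundant where none was called. Jak2, Jak3, Pias2, Pias4, Bcl3, Osm, Il12a, Il6, Il6ra, Il2rb, Il27ra, Ifngr2 and Il12rb1 complete counts and were named after their values were seen.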

Additional observations from a re-analysis of the deposited data

Results flagged for a closer look

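Stat5b in IL-10- replicate 1 measured 20.36 FPKM, above the remaining IL-10- libraries at 17.87, 17.38 and 17.80 FPKM. Its gap to the nearest of them was 0.836 of the range of the group, past the critical value of Dixon's test for 4 libraries. Of 18 groups examined, for 9 genes in IL-10+ and IL-10- cells, this was 1, and chance marks about 1 in 20. Stat5b did not pass the test with this library or without it.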

How the results depend on the processing

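The falls of Stat5a, Stat6 and Socs3 kept their direction and their call in every alternative run. The number of the 9 genes that fell was 4, and 7 with the replicate block, likewise with the block and median-of-ratios scaling or scaling without immunoglobulin and mitochondrial genes. Without the block it was 3 with either scaling and with replicates 1 and 2 only, and 3 to 5 with a library left out. Of the other pathway genes 14 fell, 29 with the replicate block, 25 with the block and either scaling, and 7 with replicates 1 and 2 only. Calls over all 11329 genes moved the same way: 1040 fell, 3771 with the replicate block, 3187 with the block and median-of-ratios scaling, 3116 with the block and the other scaling, and 320 with replicates 1 and 2 only. Fitted to replicates 1 and 2 and to replicates 3 and 4 apart, Stat6 changed by -0.78 and -0.94, Stat5a by -0.41 and -0.54 and Socs3 by -0.70 and -1.03 on the log2 scale (limma adjusted p 0.00617 to 0.0491), while Stat2 passed in replicates 3 and 4 only (limma adjusted p = 0.276 and 0.0298). Socs1 changed sign with replicates 1 and 2 only (0.18), and its log2 change ran between -0.16 and 0.082 with a library left out, at 0.0079 without IL-10+ replicate 4. The difference in the log2 ratio of Stat5b to Stat5a was 0.34 in the replicate block and 0.31 to 0.37 with a library left out, where 3 against 4 libraries cannot give an exact permutation p below 0.0571. Cish had a log2 change of 0.16 unfiltered and 0.74 with a pseudocount of 0.1, an alternative chosen after seeing the data. The cause of these shifts was not tested. Depth limits Cish most, at 10 to 52 reads a library.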
